A study of Mus musculus with 8 samples.

Results

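This account follows 10 genes of hepatic fatty acid uptake and lipoprotein secretion in mouse liver nuclei: Cd36, Fabp1, Slc27a2, Slc27a5, Apob, Mttp, Apoa4, Lipc, Angptl4 and Angptl8. They were picked by symbol from the 32285 genes of the count matrices, with earlier results of these data known. Single nuclei came from snap-frozen liver of 8 DIAMOND mice, all male, whose strain the labels give as 129A1/SvIm and C57BL/6J crossed. RNA was read from its 3′ end, so each unique molecular identifier (UMI) stands for 1 captured RNA molecule, and levels are given as CPM, UMIs per 1000000 UMIs of the profile. All 8 mice were fed a Western diet, a high-fat chow with fructose and glucose in the drinking water. Of these, 3 stayed on it for 48 weeks and developed hepatocellular carcinoma (WD tumour, n = 3). The other 5 were returned to standard chow after 36 weeks, and 2 of them developed carcinoma (RD tumour, n = 2) while 3 had none detectable (RD no tumour, n = 3). There was no group that never ate the Western diet, so the reversed-diet, tumour-free mice were the reference. They differed from the WD tumour mice in both diet and tumour, which that comparison cannot tell apart. The labels put the end of the study at 48 weeks of age for every mouse, whereas the design text has the diets begin at 2 months of age and the Western diet run for 48 weeks, and the 2 statements cannot both hold. The labels do not say whether the frozen piece of liver held tumour.

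The liver takes up long-chain fatty acids through CD36, a membrane scavenger receptor, and through the fatty acid transport proteins FATP2 (Slc27a2) and FATP5 (Slc27a5), which also activate fatty acids or bile acids to their coenzyme A esters. In the cytosol they are bound to FABP1. It exports lipid as very-low-density lipoprotein: the microsomal triglyceride transfer protein (Mttp) loads lipid onto apolipoprotein B (Apob), and apolipoprotein A-IV (Apoa4) joins the particle. Outside the cell, hepatic lipase (Lipc) hydrolyses lipid of remnant particles and high-density lipoprotein, while ANGPTL4 and ANGPTL8 are secreted inhibitors that act on lipoprotein lipase in peripheral tissues. Cd36, Fabp1 and Angptl4 are textbook targets of the peroxisome proliferator-activated receptors.

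The sequences upstream of Cd36, Apoa4 and Fabp1 are shown because these 3 members had the largest differences between pericentral and periportal hepatocyte nuclei, described further on. They are 5′ to 3′ on the sense strand, from the RefSeq promoter table (build GRCm38.p6, 250 bases before each RefSeq start), and hold no base of an exon that the GENCODE M21 annotation gives the gene. The Cd36 stretch lies inside the annotated gene, downstream of its outermost start, and the other 2 end at the gene's annotated start. Capitals mark matches to AGGTCA (the nuclear receptor core motif, here read on the opposite strand as TGACCT) or to CAAAGTNCA, a direct-repeat form bound by HNF4A.
Cd36, chr5:17835897-17836146, minus strand: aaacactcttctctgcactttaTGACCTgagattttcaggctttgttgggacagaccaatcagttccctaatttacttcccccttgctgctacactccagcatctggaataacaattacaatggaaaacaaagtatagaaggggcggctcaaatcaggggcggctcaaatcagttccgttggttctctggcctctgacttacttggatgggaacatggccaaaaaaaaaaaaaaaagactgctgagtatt
Apoa4, chr9:46240594-46240695, plus strand: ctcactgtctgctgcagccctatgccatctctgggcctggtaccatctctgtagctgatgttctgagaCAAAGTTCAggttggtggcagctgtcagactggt
Fabp1, chr6:71199629-71199826, plus strand: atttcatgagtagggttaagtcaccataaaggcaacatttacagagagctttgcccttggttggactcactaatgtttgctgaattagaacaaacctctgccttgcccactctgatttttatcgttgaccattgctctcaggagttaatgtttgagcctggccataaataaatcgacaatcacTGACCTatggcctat
The table had windows of 300 bases (250 before and 50 after the start) for 8 of the 10 members, 9 windows in all since Lipc had 2 starts; Slc27a5 and Angptl4 had none. With both strands searched, AGGTCA was present in 4 of the 9 windows (Slc27a2, Cd36, Fabp1 and 1 of the Lipc starts) and in 16.3% of all 32851 windows, and CAAAGTNCA was present in 1 of the 9 (Apoa4) and in 1.41% of all windows. TATAAA was found in 2 of the 9 (Fabp1 and Apob) and in 13.6% of all windows. The motifs were chosen after the sequences had been read, and a match describes the letters alone.

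Of 80575 barcodes, 79446 had at least 300 genes and were kept as nuclei, 6048 to 20000 per mouse, with 17948627 to 34363108 UMIs per library. The median nucleus held 1908 to 2656 UMIs in RD no tumour, 1120 to 1299 in RD tumour and 1421 to 1823.5 in WD tumour. Depth per nucleus thus separated the reference group from the tumour-bearing mice, and its part in the group differences of gated nuclei was not tested. Library pairs shared 8 to 65 barcodes. All 8 hepatocyte markers were detected in every library, and their summed level ran from 23446 to 35341 CPM. RD tumour mouse 1 stood apart: it held exactly 20000 barcodes, its profile correlated with the others at r = 0.811 to 0.892 across genes against 0.931 to 0.991 among the other 7, and 12444 of its nuclei carried markers of 2 or more classes. Mitochondrial transcripts made up 4.21% and 4.24% of UMIs in WD tumour mice 1 and 3 and 1.21% to 2.56% in the other 6 mice. In sums over a library, fewer cells of a type and less RNA per cell cannot be told apart.

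Cd36 (chr5:17781690-17888801, minus strand) was higher in the 3 mice kept on the Western diet than in any of the 5 returned to chow. In whole libraries it was at 84.6, 60.3 and 81.6 CPM in the RD no tumour mice, against 80.8 and 71.6 in the RD tumour mice, and 179, 126 and 121 in the WD tumour mice. The lowest WD mouse was above the highest reversed-diet mouse, and the RD groups overlapped each other whether or not a tumour was present. The edgeR quasi-likelihood test gave a log2 difference of 0.88 ± 0.27 (SE) for WD tumour against RD no tumour (unadjusted p = 0.0119, adjusted p = 1.00 over 19087 genes) and of 0.93 ± 0.31 against RD tumour (unadjusted p = 0.0172, adjusted p = 0.590). Against the mean of both RD groups, a contrast added after the values had been seen, it was 0.90 ± 0.24 (edgeR unadjusted p = 0.00548, adjusted p = 0.947), and 0.98 without RD tumour mouse 1. These differences therefore did not pass the threshold over all genes. RD tumour and RD no tumour differed by -0.05 ± 0.30.

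The other uptake genes varied more between mice of a group than between groups. Fabp1 (chr6:71199827-71205023, plus strand), the liver cytosolic fatty acid carrier, was at 117, 1421 and 949.6 CPM in RD no tumour, against 54.1 and 636 in RD tumour, and 2347, 416 and 889 in WD tumour. It thus spanned more than an order of magnitude within the tumour-free group, and the highest and lowest WD mice enclosed 2 of the 3 tumour-free mice. Slc27a2 (chr2:126552407-126588243, plus strand), which encodes FATP2, was at 341, 595 and 839 in RD no tumour, against 143 and 623 in RD tumour, and 810.1, 294 and 535 in WD tumour. Slc27a5 (chr7:12988346-12998192, minus strand), which encodes the bile acid and fatty acid coenzyme A ligase FATP5, was at 103, 128 and 129.6, at 38.0 and 119, and at 145, 63.5 and 125 in the same order. RD no tumour mouse 1, RD tumour mouse 1 and WD tumour mouse 2 were the lowest of their groups for all 3 genes. Their WD tumour minus RD no tumour log2 differences were 0.51 ± 1.12, -0.17 ± 0.64 and -0.15 ± 0.47 (SE), with edgeR unadjusted p-values of 0.665, 0.800 and 0.758 and adjusted p = 1.00 for each.

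Among the secretion genes, Apoa4 was the member that stood higher on the Western diet, while the 2 genes that build the particle did not. Apoa4 (chr9:46240696-46243459, plus strand) was at 138, 68.5 and 296 CPM in RD no tumour, against 122 and 222 in RD tumour, and 351, 658 and 387 in WD tumour. As with Cd36, every WD tumour mouse lay above every reversed-diet mouse. The log2 difference was 1.39 ± 0.56 against RD no tumour (edgeR unadjusted p = 0.0401, adjusted p = 1.00) and 1.46 ± 0.65 against RD tumour (unadjusted p = 0.0561, adjusted p = 0.590). Apob (chr12:7977648-8016835, plus strand), the structural protein of the particle, was at 1091, 1284 and 1329 in RD no tumour, against 525 and 1243 in RD tumour, and 1499.8, 1089.7 and 1203 in WD tumour. Mttp (chr3:138089854-138144968, minus strand), the lipid-loading protein, was at 106, 153 and 129, at 22.3 and 141, and at 135, 73.8 and 113. For both genes RD tumour mouse 1 was far below the other 7 mice, and the ranges of the WD tumour and RD no tumour groups overlapped. Apob differed between WD tumour and RD no tumour by -0.01 ± 0.39 and Mttp by -0.31 ± 0.58 on the log2 scale (edgeR unadjusted p = 0.976 and 0.613, adjusted p = 1.00 for both).

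Of the genes that act on circulating particles, Lipc (chr9:70798128-70952226, minus strand), hepatic lipase, was at 78.3, 87.4 and 244 CPM in RD no tumour, against 122 and 239 in RD tumour, and 198, 162 and 192 in WD tumour. Angptl4 (chr17:33773750-33781830, minus strand), the inhibitor released in fasting, was at 103, 185 and 112 in RD no tumour, against 35.6 and 167 in RD tumour, and 112, 62.7 and 76.0 in WD tumour. Angptl8 (chr9:21835510-21837347, plus strand), the inhibitor induced by feeding, was at 25.3, 25.8 and 26.4 in RD no tumour, against 3.17 and 53.8 in RD tumour, and 29.9, 33.6 and 109.8 in WD tumour. The WD tumour mice lay above the tumour-free mice for Angptl8, most narrowly by 29.9 against 26.4. Of the 3, mice 1 and 2 lay between the RD tumour mice and mouse 3 above both. The WD tumour minus RD no tumour log2 differences were 0.36 ± 0.50 for Lipc, -0.71 ± 0.54 for Angptl4 and 1.11 ± 0.88 for Angptl8 (edgeR unadjusted p = 0.502, 0.226 and 0.244, adjusted p = 1.00 for each).

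**Figure D1:**
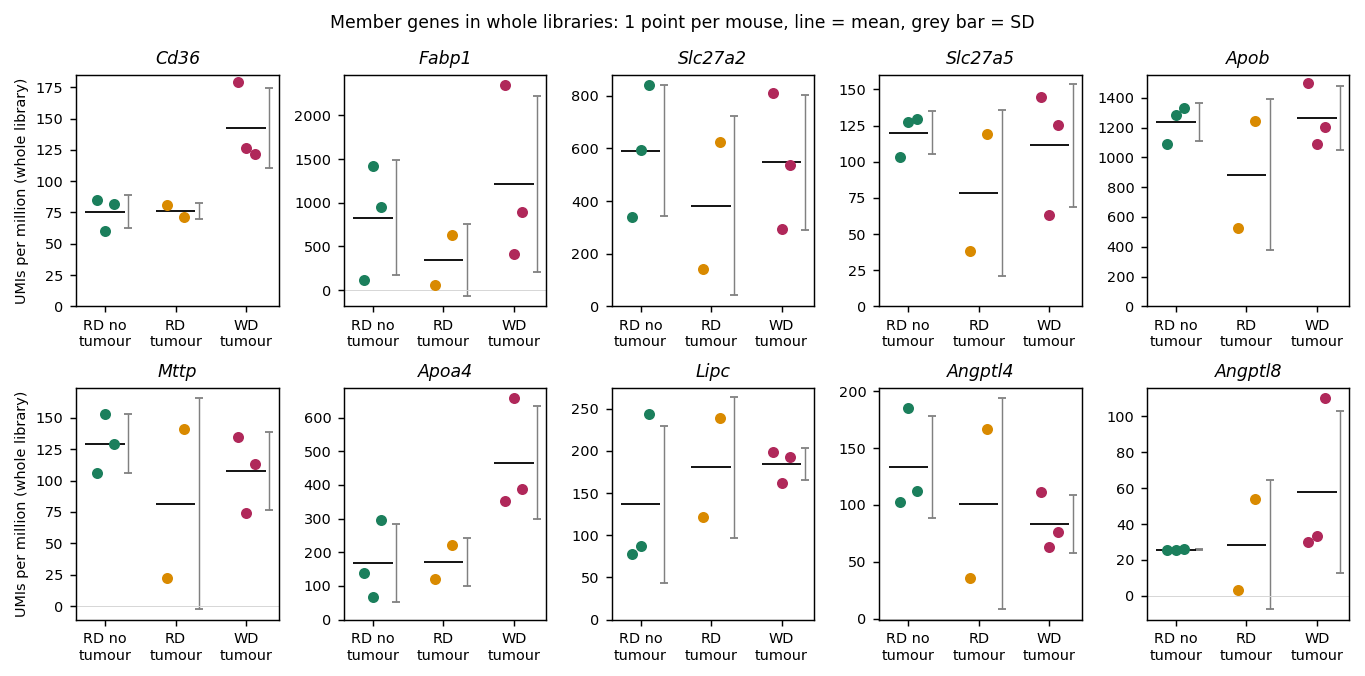
Each panel plots 1 of the 10 genes in whole libraries (y axis, CPM; x axis, the 3 groups), with 1 point per mouse, the group mean as a line and the SD as a grey bar. The 3 WD tumour points for Cd36 (121 to 179) and Apoa4 (351 to 658) lie above all 5 reversed-diet points, while Fabp1, Slc27a2 and Mttp spread widely within groups.

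In the whole libraries, the groups did not overlap for 3 of the 10 genes between WD tumour and RD no tumour (Cd36, Apoa4 and Angptl8, all higher), against 6.85% of the 19087 genes tested that were higher in this way. Between WD tumour and RD tumour this held for 2 of the 10 (Cd36 and Apoa4), against 10.4% of genes. For 2 of the 10, Cd36 and Apoa4, each WD tumour mouse was above all 5 reversed-diet mice, against 2.39% of genes tested. No gene (0%) passed an adjusted p of 0.05 in edgeR in any of the 3 comparisons, where 2.75% (524 genes), 6.7% (1279) and 7.56% (1443) had an unadjusted p under 0.05 for WD tumour against RD no tumour, RD tumour against RD no tumour and WD tumour against RD tumour. DESeq2 called 36, 64 and 109 genes in these, none of them Cd36 or Apoa4. In simulated counts with the spread of these libraries, edgeR recovered 0% of genes changed 2-fold, 25.7% of those changed 4-fold and 69.0% of those changed 16-fold between WD tumour and RD no tumour. The tumour comparison on reversed diet rested on 2 unlike libraries: the 10 genes had a median log2 difference of -0.54 against 0.00 over all genes, 8 lower (as were 49.8% of all genes) and 2 higher, with unadjusted p-values from 0.218 upward. With RD tumour mouse 2 left out, so that mouse 1, the library that stood apart, was alone in its group and was assumed to vary like the mice of the other groups, Mttp differed by -2.57 (edgeR adjusted p = 0.0197) and Angptl4 by -1.94 (adjusted p = 0.0472) from RD no tumour, and WD tumour exceeded it by 2.26 for Mttp (adjusted p = 0.0254) and 4.17 for Angptl8 (adjusted p = 0.0280). Without mouse 1, Mttp was 0.30 lower in WD tumour than in RD tumour mouse 2.

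Nuclei were then assigned to classes by marker genes, none of them a member. Hepatocyte-gated nuclei (24709, 1450 to 6027 per mouse) had UMIs of at least 3 of 8 hepatocyte markers and of at most 1 marker of any other class. Cd36 in these nuclei was at 67.9, 41.5 and 64.5 CPM in RD no tumour, against 96.6 and 50.9 in RD tumour, and 181, 108 and 111 in WD tumour. Apoa4 was at 155, 71.9 and 309, at 122 and 278, and at 409.9, 904 and 457 in the same order. For both, all WD tumour mice again exceeded all reversed-diet mice, which held for 2 of the 10 members and for 1.35% of 15618 genes tested. The 3 members above RD no tumour (Cd36, Apoa4 and Angptl8) stood beside 6.75% of genes, and the 2 above RD tumour beside 8.64%. Cd36 differed by 1.20 ± 0.35 from RD no tumour (edgeR unadjusted p = 0.00845, adjusted p = 0.953) and by 1.11 ± 0.40 from RD tumour (unadjusted p = 0.0232, adjusted p = 0.550). Apoa4 differed by 1.71 ± 0.63 (unadjusted p = 0.0276, adjusted p = 1.00) and 1.75 ± 0.74 (unadjusted p = 0.0448, adjusted p = 0.550). The 8 other members had unadjusted p-values of 0.161 or more in the 3 comparisons, in which 4.2%, 13% and 8.81% of genes (656, 2028 and 1376) were under 0.05 and 0% passed after adjustment. DESeq2 called 59, 426 and 57 genes there. Markers of another Cd36-bearing class differed within the gate. The 10 endothelial markers summed to 72.2 to 96.7 CPM in RD no tumour, 182 to 355 in RD tumour and 139 to 182 in WD tumour hepatocyte-gated nuclei, with none at 0. The gate allows at most 1 such marker per nucleus at any depth, and depth differed too. Median UMIs per hepatocyte-gated nucleus were 2138 to 4003.5 in RD no tumour, 857 to 956 in RD tumour and 904 to 992 in WD tumour. The part of depth in these sums, and of both in the Cd36 difference, was not tested. In whole libraries the same sum overlapped between the groups, 768 to 909.6, 669 to 909.7 and 747 to 1002. For Apoa4, every WD tumour mouse was also above all reversed-diet mice in macrophage-gated nuclei (1.4% of genes). Endothelial-gated nuclei had every WD tumour mouse above both RD tumour mice, as for 10.6% of genes. In stellate-gated nuclei the WD tumour mice were not all above the reversed-diet mice. The part of hepatocyte RNA in the Apoa4 values of these classes was not tested.

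**Figure D2:**
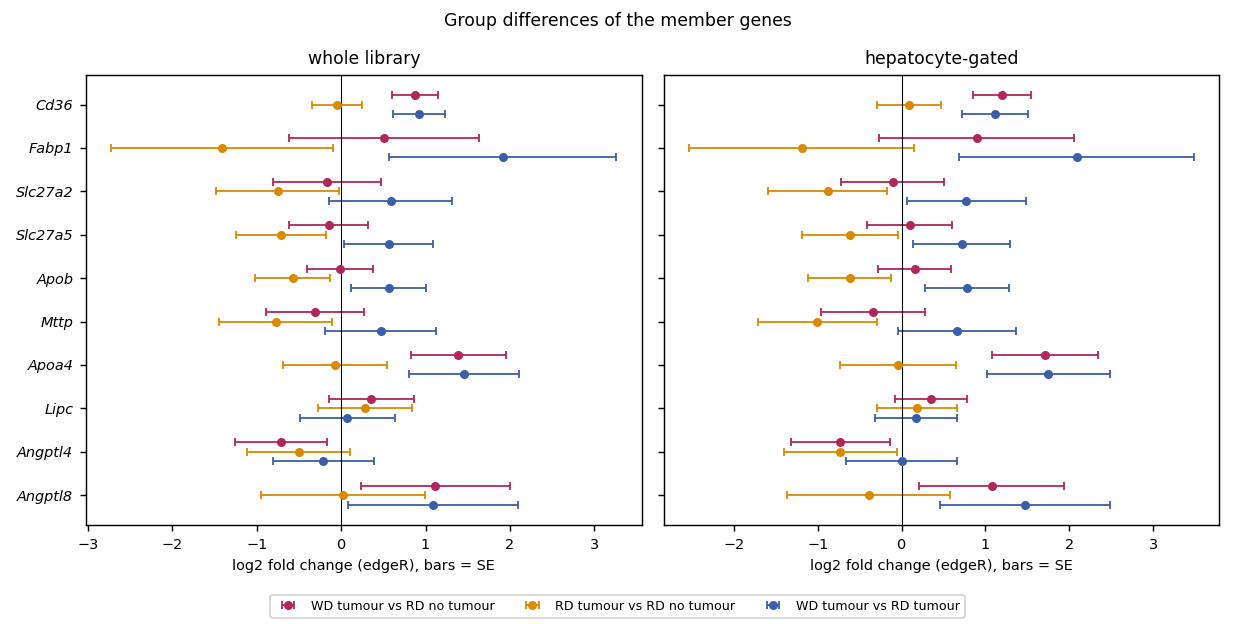
Log2 fold changes of the 10 genes (x axis, bars are SE) in whole libraries (left) and hepatocyte-gated nuclei (right) for the 3 group comparisons. Cd36 (0.88 and 0.93 in whole libraries) and Apoa4 (1.39 and 1.46) lie to the right of 0 by more than their SE in both comparisons with WD tumour, and the bars for RD tumour against RD no tumour are wide for most genes.

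The surrounding pathway was read in hepatocyte-gated nuclei from 4 lists without any member. No list gene passed the adjusted threshold in edgeR in any of the 3 group comparisons. For uptake and intravascular lipolysis, 19 of 20 genes were tested: 17 were higher and 2 lower in WD tumour than RD no tumour, with a median log2 difference of 0.30 against -0.01 over all genes. Of them 3 had an unadjusted p under 0.05, all higher, where 2.98% of genes did. By sign alone 48.6% of all genes were higher in this comparison. These were Lpl, the lipase that releases fatty acids from circulating particles (3.29, unadjusted p = 0.000254), and the fatty acid binding proteins Fabp7 (2.17, unadjusted p = 0.0364) and Fabp5 (1.88, unadjusted p = 0.0473). Lpl was at 3.59 to 6.23 CPM in RD no tumour, 24.9 to 73.8 in RD tumour and 24.0 to 69.6 in WD tumour, so both tumour-bearing groups lay above the tumour-free one. The endothelial marker sum within the hepatocyte gate, given above, was likewise higher in both tumour-bearing groups, whose hepatocyte-gated nuclei held fewer UMIs at the median. Lpl was higher in stellate-gated (1.66, edgeR adjusted p = 0.00395) and macrophage-gated nuclei (0.84, adjusted p = 0.0234) than in hepatocyte-gated ones, and Gpihbp1 (2.72, adjusted p = 0.000122) and Fabp4 (2.07, adjusted p = 0.000402) were higher in endothelial-gated ones. The part of other cell types in the differences of these genes was not tested. RD tumour exceeded RD no tumour by 3.13 for Lpl (unadjusted p = 0.000491), 1.55 for Gpihbp1, the capillary anchor of that lipase (unadjusted p = 0.0101), and 2.92 for the adipocyte and macrophage binding protein Fabp4 (unadjusted p = 0.0218). WD tumour against RD tumour gave -1.38 for Gpihbp1 (unadjusted p = 0.0177) and 2.59 for Fabp2 (unadjusted p = 0.0943).

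Of the 22 genes of particle assembly and secretion, 10 were higher and 12 lower in WD tumour than RD no tumour (median -0.07), and none had an unadjusted p under 0.05. The lowest belonged to the lipid hydrolase Ces1g (1.28, unadjusted p = 0.247), the vesicle coat regulator Arf1 (0.31, unadjusted p = 0.292) and the triglyceride synthase Dgat2 (0.60, unadjusted p = 0.405). The sorting receptor Sort1, which binds apolipoprotein B, was at 7.31 to 18.8 CPM in RD no tumour, 18.6 to 91.1 in RD tumour and 7.79 to 16.6 in WD tumour. It differed by 1.92 between RD tumour and RD no tumour (unadjusted p = 0.0198) and by -2.04 between WD tumour and RD tumour (unadjusted p = 0.0155). The endoplasmic reticulum chaperone Pdia4 gave -0.93 (unadjusted p = 0.0273) and 0.81 (unadjusted p = 0.0452) in these comparisons, with Arf1 at 0.57 (unadjusted p = 0.0995) in the first and Dgat2 at 1.82 (unadjusted p = 0.0565) in the second. Sort1 was also higher in macrophage- than in hepatocyte-gated nuclei (0.52, edgeR adjusted p = 0.0108). The part of other cell types in its group differences was not tested.

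Exchangeable apolipoproteins and remodelling genes were 10 higher and 4 lower of 14 in WD tumour against RD no tumour (median 0.33), again with none at an unadjusted p under 0.05. The lowest were Apom (-0.76, unadjusted p = 0.0807), the phospholipid transfer protein Pltp (0.94, unadjusted p = 0.125) and the high-density lipoprotein receptor Scarb1 (0.64, unadjusted p = 0.134). Between RD tumour and RD no tumour 12 of the 14 were lower (median -0.59), as were 53% of all genes. The lowest p-values there were those of Pltp, which was higher (1.55, unadjusted p = 0.0330), the cholesterol exporter Abca1 (-0.66, unadjusted p = 0.0963) and Lcat, which esterifies cholesterol in plasma (-0.67, unadjusted p = 0.132). Between WD tumour and RD tumour 12 were higher (median 0.66), as were 51.1% of all genes, with Abca1 at 0.95 (unadjusted p = 0.0268), Apoc4 at 0.98 (unadjusted p = 0.0704) and Apoc3, an inhibitor of lipolysis, at 1.11 (unadjusted p = 0.0884). Among 13 regulators, Srebf1, the lipogenic transcription factor, averaged 15.3 CPM in RD no tumour, 17.6 in RD tumour and 55.7 in WD tumour, where its lowest mouse (27.5) was above the highest reversed-diet mouse (25.3). Its log2 difference was 1.87 (unadjusted p = 0.00352) against RD no tumour and 1.95 (unadjusted p = 0.00690) against RD tumour. The coactivator Ppargc1a (-0.44, unadjusted p = 0.163) and the sterol receptor Nr1h3 (0.24, unadjusted p = 0.285) had the next lowest p against RD no tumour. RD tumour against RD no tumour gave -1.31 for the hepatocyte factor Hnf4a (unadjusted p = 0.0226), 2.16 for Pparg (unadjusted p = 0.0243) and -0.88 for Foxo1 (unadjusted p = 0.103). The median of the regulators was -0.78 there, against -0.06 over all genes. For WD tumour against RD tumour it was 0.94, against 0.02 over all genes, with Foxo1 0.94 (unadjusted p = 0.0837) and Hnf4a 0.88 (unadjusted p = 0.0890) higher. These 2 comparisons share the 2 RD tumour mice, of which mouse 1 was the library that stood apart, and all adjusted p-values lay above 0.05. Pltp (1.34, edgeR adjusted p = 0.000648) and Pparg (0.99, adjusted p = 0.000452) were higher in macrophage- than in hepatocyte-gated nuclei. Hnf4a was lower there (-0.31, adjusted p = 0.00387). The part of other cell types in the group differences of these genes was not tested.

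Between cell classes of the same mouse, Cd36 was highest in endothelial-gated nuclei. These 5417 nuclei had UMIs of at least 2 of 10 endothelial markers and fewer than 2 of every other non-hepatocyte class. Cd36 there was at 338, 182 and 185 CPM in RD no tumour, against 109.8 and 186 in RD tumour, and 266, 322 and 203 in WD tumour, above the hepatocyte-gated nuclei in 8 of 8 mice, by the least in RD tumour mouse 1. The log2 difference was 1.35 ± 0.22 (edgeR with the mouse as a block, adjusted p = 0.000408). Over the mice with at least 20 nuclei of the class, the median level was 194 (110 to 338) in endothelial-gated and 82.3 (41.5 to 181) in hepatocyte-gated nuclei. It was 71.5 (45.6 to 163) in macrophage-gated, 69.6 (26.6 to 169) in cholangiocyte-gated and 60.0 (17.8 to 83.7) in T/NK-gated nuclei. Stellate-gated nuclei were at 46.1 (35.3 to 104) and B-gated ones at 45.4 (20.6 to 92.2). This left RD tumour mouse 1 out of the cholangiocyte-, T/NK- and B-gated values, and WD tumour mouse 2 out of the B-gated ones. The ranges below the endothelial class overlapped, and stellate-gated nuclei had less Cd36 than hepatocyte-gated nuclei in 8 of 8 mice (-0.46 ± 0.11, adjusted p = 0.00378). Macrophage-gated nuclei were 0.11 ± 0.06 lower with an adjusted p of 0.166, and 0.06 higher (adjusted p = 0.801) with a gate whose marker threshold scaled with each nucleus's depth.

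In endothelial-gated nuclei, where Cd36 was highest, its difference depended on the reversed-diet group. They gave 0.13 ± 0.35 for WD tumour against RD no tumour (edgeR unadjusted p = 0.713), a value that ranged from -0.01 to 0.48 as single mice were left out. Against RD tumour it was 0.87 ± 0.41 (edgeR unadjusted p = 0.0621, adjusted p = 0.626), with every WD tumour mouse above both RD tumour mice, as for 10.6% of genes. Stellate-gated nuclei were at 42.9, 35.3 and 47.5 CPM in RD no tumour, against 44.6 and 38.5 in RD tumour and 104, 102 and 102 in WD tumour, from 7 to 190 UMIs per mouse. The WD tumour mice were above all reversed-diet mice, as were 2.31% of genes in these nuclei, and the difference of 1.23 ± 0.23 (unadjusted p = 0.000426, adjusted p = 0.639) was 0.84 with the depth-scaled gate, under which the WD tumour mice were at 106, 50.3 and 77.0. In macrophage-gated nuclei, where the WD tumour mice were again above all others (1.4% of genes), it was 1.16 ± 0.28 (unadjusted p = 0.00318, adjusted p = 1.00) and 1.32 with the depth-scaled gate. Hepatocyte marker RNA was found in both classes. The median within-mouse log2 ratio of the hepatocyte markers to hepatocyte-gated nuclei was -0.05 in stellate-gated and -0.15 in macrophage-gated nuclei. With the depth-scaled gate these were -0.32 and -0.51. The part of hepatocyte RNA in the Cd36 differences of these 2 classes was not tested. The test of the difference itself, WD minus RD mice in the endothelial against hepatocyte contrast and added after the values had been seen, called 0 of 12237 genes in edgeR (0%; 375, or 3.06%, had an unadjusted p under 0.05) and 0 in DESeq2. It gave -0.73 ± 0.42 (unadjusted p = 0.111, adjusted p = 1.00) and -1.03 without RD tumour mouse 1 (adjusted p = 0.931). A difference between the classes in the gap between WD and RD mice therefore did not pass.

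**Figure D3:**
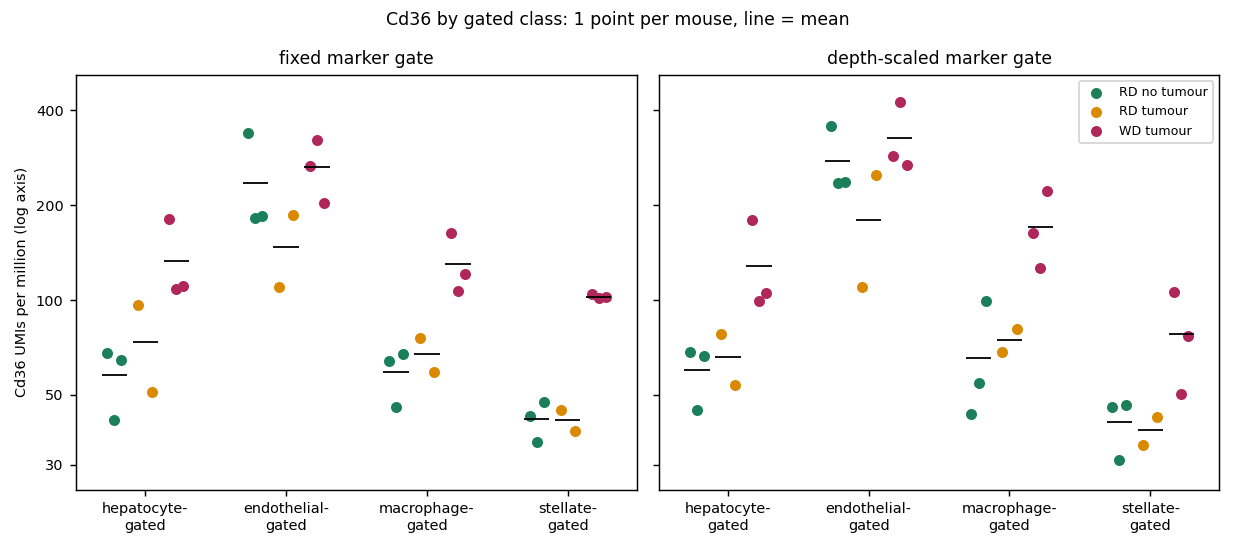
Cd36 CPM (log y axis) in 4 gated classes, 1 point per mouse and a line at each group mean, for the fixed marker gate (left) and the depth-scaled gate (right). Endothelial-gated nuclei lie highest in every group (110 to 338 with the fixed gate), and the WD tumour points lie above the reversed-diet points in hepatocyte-, macrophage- and stellate-gated nuclei with both gates.

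Most other members were lower in endothelial- than in hepatocyte-gated nuclei, and hepatocyte marker RNA was found in both. The 8 hepatocyte markers summed to 22560 to 36122 CPM in endothelial-gated nuclei, against 24937 to 46980 in hepatocyte-gated ones, and their within-mouse log2 ratio had a median of -0.16 (-1.16 to 0.40 over markers and mice). On that scale single markers had medians from -0.63 (Cps1) to -0.02 (Ttr). The 7 members called lower below had medians from -0.63 (Angptl4) to -0.18 (Slc27a5), over much the same span. The edgeR differences are TMM-normalized and not on that scale. By edgeR 8 of the 10 members passed the adjusted threshold between endothelial- and hepatocyte-gated nuclei, 1 higher (Cd36) and 7 lower. Of 12237 genes 44.7% did, 20.8% higher and 23.9% lower. Angptl8 was -0.76 ± 0.13, Lipc -0.68 ± 0.10, Angptl4 -0.66 ± 0.11, Mttp -0.55 ± 0.11, Slc27a2 -0.54 ± 0.07, Apob -0.33 ± 0.08 and Slc27a5 -0.24 ± 0.09 (edgeR adjusted p from 9.62e-05 for Slc27a2 to 0.0478 for Slc27a5). With the depth-scaled gate the differences were larger, at -1.49 for Lipc, -1.39 for Angptl8, -1.32 for Angptl4, -1.12 for Slc27a2 and -1.11 for Mttp. As within-mouse log2 ratios with that gate, the medians of these genes ran from -1.33 (Lipc) to -0.96 (Mttp). Single hepatocyte markers then ran from -1.35 (Cps1) to -0.06 (Hpx), the next lowest after Cps1 being Ahsg (-0.54). The call for Slc27a5 was lost without any 1 of 6 mice (RD no tumour 1 or 3, RD tumour 2, or a WD tumour mouse), at -0.17 to -0.27, and with at least 500 genes per nucleus (-0.12, adjusted p = 0.227) or without the top 5% of barcodes (-0.25, adjusted p = 0.0527). Fabp1 (0.01 ± 0.10) and Apoa4 (-0.17 ± 0.08, adjusted p = 0.0945) did not pass, and Apoa4 passed without RD no tumour mouse 3 (-0.25, adjusted p = 0.0324) and with DESeq2 (-0.20, adjusted p = 0.0354), RLE normalization (-0.21, adjusted p = 0.0305), no low-count filter (-0.27, adjusted p = 0.0255) or the stricter gate (-0.62, adjusted p = 0.00151). Fabp1 passed in opposite directions, higher with at least 500 genes per nucleus (0.23, adjusted p = 0.0434) and lower with the stricter gate (-0.52, adjusted p = 0.0216). In T/NK-gated nuclei Fabp1 had a median of 1369.8 CPM over the mice other than RD tumour mouse 1. The part of free RNA in its level there was not tested.

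In stellate-gated nuclei (4698) 7 of the 10 members were lower than in hepatocyte-gated ones, where 24.1% of 11750 genes were lower and 42.5% passed in either direction. As within-mouse log2 ratios of CPM, the medians of these 7 ran from -0.81 (Lipc) to -0.25 (Apob). Those of the single hepatocyte markers ran from -0.89 (Cps1) to 0.14 (Hpx). By edgeR the differences were as follows. Lipc led with -1.01 ± 0.11 (edgeR adjusted p = 1.13e-05), followed by Angptl4 at -0.76 ± 0.10, and Fabp1, Slc27a5 and Apoa4 did not pass (0.05, -0.02 and -0.04). With the stricter gate Slc27a5 (-0.68, adjusted p = 0.00142) and Apoa4 (-0.67, adjusted p = 0.00740) did, and with at least 500 genes per nucleus Apob no longer did (-0.21, adjusted p = 0.0505). The depth-scaled gate gave -1.90 for Lipc, -1.86 for Angptl8, -1.28 for Slc27a2 and -1.10 for Mttp. Their within-mouse medians with that gate ran from -2.08 (Angptl8) to -1.04 (Mttp). Those of the single hepatocyte markers then ran from -1.69 (Cps1) to 0.02 (Hpx), the next lowest after Cps1 being Ahsg (-0.61). In macrophage-gated nuclei (14264) 9 members were lower by 0.27 to 0.33 on the log2 scale, where 22.1% of 14092 genes were lower and 37.7% passed in either direction. As within-mouse log2 ratios of CPM, their medians ran from -0.22 (Apob) to -0.12 (Fabp1). Those of the single hepatocyte markers were alike, from -0.19 (Serpinc1) to -0.12 (Cps1). The call for Fabp1 was lost with at least 500 genes per nucleus (-0.10, adjusted p = 0.1000) and with the depth-scaled gate (-0.32, adjusted p = 0.125), and that for Mttp with the stricter gate (-0.33, adjusted p = 0.0676). That gate was a weak one: its 13 markers summed to 1383 to 2818 CPM, against 157 to 1010 in hepatocyte-gated nuclei. With the depth-scaled gate, in which they summed to 4367 to 6923, Lipc was lower than in hepatocyte-gated nuclei in 8 of 8 mice with a median log2 ratio of -1.99, Angptl8 in 8 of 8 with -1.81 and Slc27a2 in 8 of 8 with -1.56. For Fabp1 the median ratio was -0.17. Single hepatocyte markers ran from -1.85 (Cps1) to -0.22 (Ttr) with that gate, the next lowest after Cps1 being Ahsg (-0.92).

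**Figure D4:**
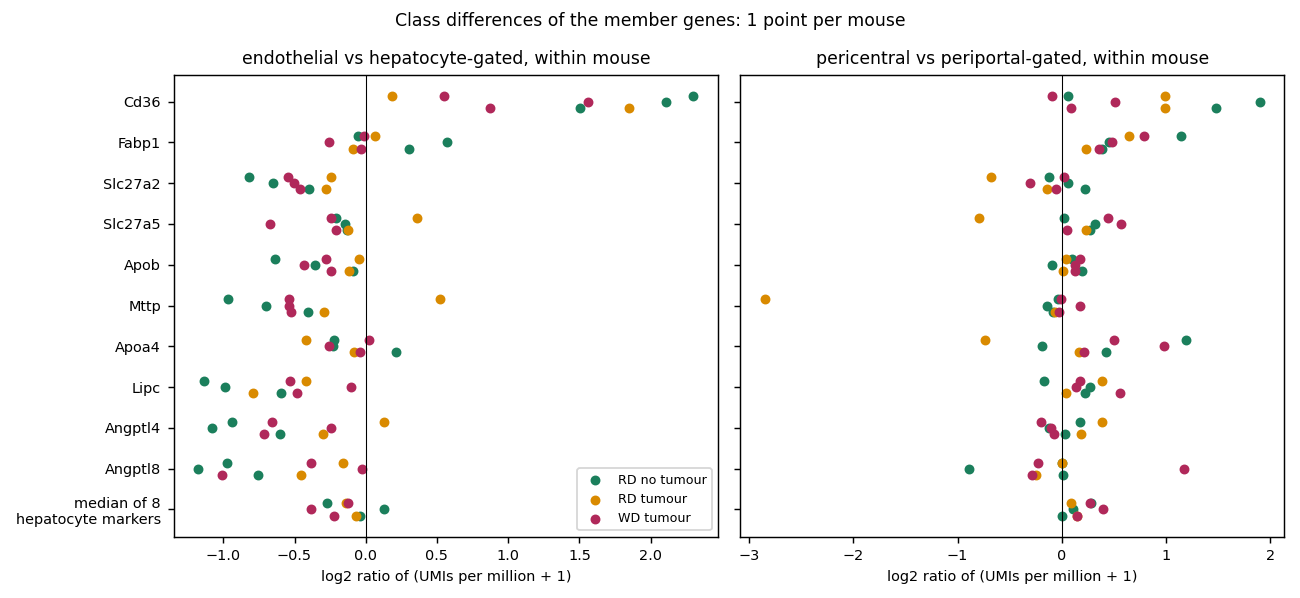
Within-mouse log2 ratios of (CPM + 1) for the 10 genes and the median of the 8 hepatocyte markers, 1 point per mouse, between endothelial- and hepatocyte-gated nuclei (left) and between pericentral- and periportal-gated nuclei (right). Cd36 lies right of 0 in 8 of 8 mice on the left, and Fabp1 in 8 of 8 on the right; the point at -2.85 for Mttp is RD tumour mouse 1, with 0 UMIs in its pericentral-gated nuclei.

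Hepatocyte-gated nuclei were divided by markers of the lobule's zones into pericentral-gated (9264) and periportal-gated (5462) nuclei. In this comparison within mice, 5 of the 10 members were higher in pericentral-gated nuclei, where 13.2% of 11800 genes passed in that direction, 10.4% in the other and 23.5% in either. Cd36 was at 72.1, 66.7 and 96.9 CPM pericentrally against 69.1, 17.2 and 34.2 periportally in RD no tumour, 112 and 57.2 against 55.8 and 28.3 in RD tumour, and 181, 103 and 108 against 192, 71.7 and 102 in WD tumour. It was higher pericentrally in 7 of 8 mice, the exception being WD tumour mouse 1, with a log2 difference of 0.71 ± 0.18 (edgeR adjusted p = 0.00647). With the depth-scaled gate it was 0.48 and no longer passed (adjusted p = 0.0511).

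Fabp1 was higher pericentrally in 8 of 8 mice, at 144 against 64.9, 1454 against 1062 and 988 against 754 CPM in RD no tumour, 49.1 against 31.0 and 692 against 589 in RD tumour, and 2956 against 1712, 446 against 320.1 and 880.3 against 688 in WD tumour. The difference was 0.56 ± 0.09 (edgeR adjusted p = 0.000163). Apoa4, at 64.5 to 755 pericentrally and 73.6 to 382 periportally, was higher in 6 of 8 mice, by 0.45 ± 0.12 (adjusted p = 0.00870). Slc27a5 (0.26 ± 0.08, adjusted p = 0.0180) and Lipc (0.22 ± 0.08, adjusted p = 0.0409) were higher in 7 of 8 mice each. The call for Lipc was lost without RD no tumour mouse 2 or 3 or without any of the 3 WD tumour mice (0.16 to 0.23), and that for Slc27a5 without RD no tumour mouse 2 (0.23, adjusted p = 0.0657) or WD tumour mouse 1 (0.22, adjusted p = 0.0533). With at least 500 genes per nucleus Apoa4 (0.27, adjusted p = 0.105) and Slc27a5 (0.16, adjusted p = 0.172) no longer passed. With a stricter gate Slc27a5 (0.24, adjusted p = 0.347) and Lipc (0.19, adjusted p = 0.465) did not. Lipc was also not called by DESeq2 (0.22, adjusted p = 0.0691) or without the top 5% of barcodes (0.19, adjusted p = 0.101). Angptl4 (0.03), Mttp (-0.03), Slc27a2 (-0.03), Apob (0.12) and Angptl8 (-0.20) did not pass, but with the stricter gate Angptl8 was lower pericentrally (-0.79, adjusted p = 0.0201). As within-mouse log2 ratios of CPM, the hepatocyte markers had a median of 0.15 between the zones. Single markers had medians from -0.71 (Cps1) to 0.33 (Trf). On that scale Cd36 was at 0.75, Fabp1 at 0.46, Apoa4 at 0.32, Slc27a5 at 0.25 and Lipc at 0.20. Apoa4, Slc27a5 and Lipc thus lay within the span of the markers. RD tumour mouse 1 gave 98 pericentral- and 106 periportal-gated nuclei, and WD tumour mouse 2 gave 36 periportal-gated ones. Median UMIs per nucleus were 3201.5, 2771.5 and 2702 pericentrally against 3712, 4882 and 3273.5 periportally in RD no tumour. They were 1088.5 and 992.5 against 1286 and 2353.5 in RD tumour. In WD tumour they were 982, 1121 and 1119.5 against 3602, 4837 and 3304. The part of depth in the zonal differences was not tested.

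By mouse, the Cd36 within-mouse log2 ratio was 0.06, 1.90 and 1.48 in RD no tumour, against 0.99 and 0.99 in RD tumour, and -0.09, 0.51 and 0.09 in WD tumour. All WD tumour mice but mouse 2, whose periportal value rests on 15 UMIs, were near 0, and so was RD no tumour mouse 1. The interaction, added after the values had been seen, was -1.02 ± 0.27 (WD minus RD mice, edgeR unadjusted p = 0.00120, adjusted p = 0.245), where 0.161% of genes (19 of 11800) passed and 6.69% had an unadjusted p under 0.05. It passed without RD no tumour mouse 1 (-1.38, adjusted p = 0.000270) and without the low-count filter (-1.01, adjusted p = 1.05e-05), and was -0.69 with the depth-scaled gate (unadjusted p = 0.0356, adjusted p = 0.949). Of the other 9 members none had an unadjusted p under 0.05 for this interaction, the lowest being Lipc (0.28 ± 0.15, unadjusted p = 0.0731). Pericentral-gated nuclei were shallower than periportal-gated ones in every mouse, and by most in WD tumour. The part of depth in the interaction was not tested.

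**Figure D5:**
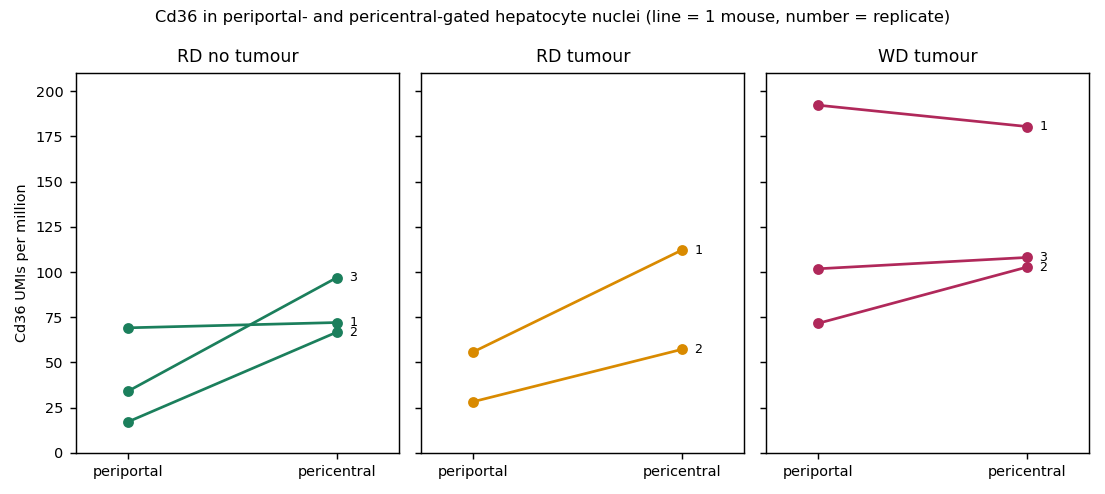
Cd36 CPM (y axis) in periportal- and pericentral-gated hepatocyte nuclei of each mouse, joined by a line and numbered by replicate, in the 3 groups. The lines climb in all 5 reversed-diet mice, least in RD no tumour mouse 1 (69.1 to 72.1) and from 17.2 to 66.7 in RD no tumour mouse 2. In WD tumour they go from 192 to 181, from 71.7 to 103 and from 102 to 108.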

How the data were processed

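The deposited files hold raw UMI counts per gene and barcode for 8 libraries, made by the authors with Cell Ranger 7.0.0 on mm10, per the submitters' processing notes; filters before deposit are not given in the sources used here. Counts were summed per mouse over barcodes with at least 300 genes, and per class set by fixed marker lists. Nuclei reaching 2 non-hepatocyte classes (24718 of 79446) were left out of the classes as possible doublets; no doublet caller was run. A gate scaled to each nucleus's depth was added after seeing the data. Tests were edgeR 4.0.16 quasi-likelihood tests (limma 3.58.1, R 4.3.3; TMM, filterByExpr, Benjamini-Hochberg over all genes tested, threshold 0.05), with the mouse as a block between classes, where gate markers were left out of the genes tested. DESeq2 1.42.0 was an alternative. The scripts were tested on simulated data. Levels are counts per 1000000 UMIs of the profile (CPM), not adjusted for gene length, so levels are compared between mice and classes and not between genes. P-values measure the spread between these mice. The 10 members and the gene lists were chosen with earlier results of these data known. Named from each list were the 3 genes with the lowest unadjusted p in hepatocyte-gated nuclei per comparison. 1 gene that this rule names is not reported here. Numpy 2.4.6 and pandas 2.3.3 were used.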

Additional observations from a re-analysis of the deposited data

Results flagged for a closer look

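Over 40 within-mouse log2 ratios between classes (10 genes, 4 class comparisons, 8 mice each), 6 had 1 mouse far from the other 7 by Dixon's test, which chance does for about 1 in 20 groups. RD tumour mouse 1 was that mouse for 3 of them: Mttp between pericentral- and periportal-gated nuclei (-2.85, the others -0.14 to 0.18), Slc27a5 in the same comparison (-0.80, the others 0.02 to 0.57), and Mttp between endothelial- and hepatocyte-gated nuclei (0.52, the others -0.97 to -0.29). WD tumour mouse 2 had 1.17 for Angptl8 between the zones (the others -0.89 to 0.01). WD tumour mouse 3 had -0.45 for Apoa4 between macrophage- and hepatocyte-gated nuclei (the others -0.21 to -0.06). RD no tumour mouse 3 had 0.12 for Apob between stellate- and hepatocyte-gated nuclei (the others -0.36 to -0.21).

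Slc27a5 between stellate- and hepatocyte-gated nuclei was below 0 in all 3 WD tumour mice (mean -0.26) and above 0 in all 5 reversed-diet mice (0.01 to 0.59). With the depth-scaled gate the reversed-diet mice were no longer all above 0 (-0.29 to 0.50). That difference was not tested.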

How the results depend on the processing

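The Cd36 and Apoa4 differences of WD tumour from RD no tumour kept their sign under every alternative run in whole libraries, at 0.62 to 0.98 and 1.01 to 2.16, and none gave an adjusted p under 0.05. Counts of genes called depended on the tool and on RD tumour mouse 2. In the 3 group comparisons (WD tumour with RD no tumour, RD tumour with RD no tumour, WD tumour with RD tumour, in that order) DESeq2 called 36, 64 and 109 genes in whole libraries, 59, 426 and 57 in hepatocyte-gated, 7, 18 and 17 in endothelial-gated, 18, 123 and 29 in macrophage-gated and 9, 12 and 6 in stellate-gated nuclei, where edgeR called 0. Against all reversed-diet mice it called 64 in whole libraries and 31 in hepatocyte-gated nuclei. Without a low-count filter edgeR called 1 and 3 genes in endothelial-gated nuclei (the first pair of comparisons) and 23, 86 and 87 in stellate-gated nuclei. The endothelial interaction then gave 3 genes, and 2 with the stricter gate. The zonal interaction gave 115 without the filter, 11 with DESeq2 and 0 with the depth-scaled gate, and the zonal comparison 696 with the stricter gate against 2778. The cause was not tested.

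With single mice left out, counts ran from 0 to 4569 (RD tumour against RD no tumour), 0 to 4438 (WD tumour against RD tumour) and 0 to 716 (WD tumour against all reversed-diet mice) in whole libraries, and from 0 to 4514, 0 to 3618 and 0 to 762 in hepatocyte-gated nuclei, the highest each without RD tumour mouse 2. In endothelial-gated nuclei they ran from 0 to 1952 and 0 to 1888, in macrophage-gated from 0 to 3413 and 0 to 2936, and in stellate-gated from 0 to 855 and 0 to 728. WD tumour against RD no tumour reached 0 to 2 in endothelial- and in stellate-gated nuclei. The endothelial interaction reached 0 to 1, and the zonal one 10 to 43.

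Values near 0 changed sign. With single mice left out, RD tumour against RD no tumour ran from -0.20 to 0.091 for Cd36, -0.52 to 0.73 for Apoa4, -0.23 to 1.10 for Lipc, -1.94 to 0.19 for Angptl4 and -3.06 to 0.93 for Angptl8 in whole libraries, and from -0.30 to 0.38 for Cd36 and -0.92 to 0.66 for Apoa4 in hepatocyte-gated nuclei. WD tumour against RD no tumour ran from -0.46 to 1.12 for Fabp1, -0.62 to 0.22 for Slc27a2, -0.43 to 0.15 for Slc27a5 and -0.20 to 0.11 for Apob, and from -0.013 to 0.48 for Cd36 in endothelial-gated nuclei. WD tumour against RD tumour ran from -0.092 to 1.93 for Slc27a2, -0.0081 to 1.55 for Slc27a5, -0.30 to 2.26 for Mttp, -0.29 to 0.59 for Lipc and -0.91 to 1.22 for Angptl4. Between classes the ranges were -0.11 to 0.071 for Fabp1 (endothelial), -0.058 to 0.085 for Fabp1 and -0.088 to 0.018 for Slc27a5 (stellate), and -0.0020 to 0.058 for Angptl4 and -0.063 to 0.0080 for Slc27a2 (zones).

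Fabp1 between endothelial- and hepatocyte-gated nuclei was -0.036 with DESeq2, -0.037 with RLE normalization, -0.061 with the depth-scaled gate, -0.092 without the filter, -0.52 with the stricter gate, -0.014 without mitochondrial genes and -0.0082 without the top 5% of barcodes. With at least 500 genes per barcode, Apoa4 was 0.026 (endothelial) and 0.13 (stellate), and Slc27a5 0.074 (stellate). With the depth-scaled gate, Fabp1 was -0.12 (stellate), Cd36 0.065 (macrophage) and -0.014 (RD tumour against RD no tumour, hepatocyte-gated), and Slc27a2 0.00050 (zones). Without the filter Fabp1 was -0.042 (stellate). With the stricter gate, Fabp1 was -0.50 (stellate), Cd36 -0.27 (RD tumour against RD no tumour, hepatocyte-gated), and between zones Angptl4 was -0.0063, Mttp 0.10 and Slc27a2 0.23. Without the top 5% of barcodes, Mttp was 0.0033 between zones; in whole libraries Angptl8 was -0.18, Apoa4 0.059 and Cd36 0.073 for RD tumour against RD no tumour, Lipc was -0.0013 for WD tumour against RD tumour, and Apob 0.089 for WD tumour against RD no tumour.

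Replicate numbers did not pair the mice: deviations of same-numbered mice correlated at -0.605 to 0.463. With the replicate block edgeR called 1 gene in stellate-gated nuclei (WD tumour against RD no tumour) and 0 in the 16 other comparisons. The block turned RD tumour against RD no tumour to -0.27 for Angptl8 and 0.27 for Apoa4 (0.064 hepatocyte-gated), WD tumour against RD no tumour to 0.023 for Apob and 0.011 for Slc27a2, and WD tumour against RD tumour to 0.17 for Angptl4 and -0.15 for Lipc.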
